A study of Mus musculus with 2 samples.

Results

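The surface epithelial cells of the mouse fetal ovary at E15.5 were examined in 2 droplet single-cell RNA-seq libraries, 1 from ovaries with a deletion of the glucocorticoid receptor (GR, encoded by Nr3c1) and 1 from wild-type ovaries. They were chosen by their transcripts. A cell barcode was kept if it held 3000 or more unique molecular identifiers (UMIs, each standing for 1 captured transcript) and less than 10% mitochondrial UMIs. It counted as somatic if Dazl, Ddx4, Smc1b, Sycp1, Sycp3 and Stra8, which mark germ cells, together gave less than 10 UMIs per 10000. A somatic cell counted as surface epithelial if Krt19, Krt7 and Upk3b together gave 5 or more UMIs per 10000 and at least as many as Fst, Kctd14, Gng13, Foxl2 and Wnt6, which mark pregranulosa cells, if Col1a1, Col1a2 and Col3a1 gave less than 15, and if haemoglobin gave less than 500. This rule found 667 surface epithelial cells, 478 in KO and 189 in WT, among 6682 somatic cells, 25395 kept cells and 29259 barcodes.

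KO ovaries were homozygous for the deletion allele derived from the floxed strain Nr3c1tm1.1Jda by a β-actin Cre, which acts throughout the embryo, so the somatic cells carried the deletion as well as the germ cells. WT ovaries had the normal gene, and both groups carried the Tg(Pou5f1-EGFP)2Mnn reporter that labels germ cells. Ovaries of 2 KO embryos and of 4 WT embryos were pooled by genotype, dissociated with trypsin, sorted by GFP and remixed at 60 parts germ cells to 40 parts somatic cells before capture, so the share of somatic cells in a library was set by hand. Each group held 1 library. A difference between KO and WT therefore had no replicate and no test, and genotype cannot be told apart from the pool of embryos, the sort, the capture and the depth. All intervals below are 95% intervals that cover counting error only.

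The surface epithelium is the single layer of cells that covers the ovary and descends from the coelomic epithelium of the genital ridge. It belongs to the mesothelial family of linings: its cells carry simple keratins and uroplakins, sit on a basement membrane and keep apical microvilli coated with mucin. In the fetal ovary this layer is also a source of pregranulosa cells, the supporting cells that enclose the oocytes, and its daughters move inward along germ cell cords. The neighbouring classes used here for comparison were the pregranulosa side, somatic cells with a collagen sum under 15 whose pregranulosa sum was 5 or more and above the keratin and uroplakin sum (2234 KO and 1052 WT cells), and the collagen side, somatic cells with a collagen sum of 15 or more (1305 KO and 651 WT cells).

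The surface epithelial cells were deeper than the other somatic cells. Their median was 11225.5 UMIs in KO and 17280 in WT, against 7526.5 and 11482 in the other somatic cells, and their median mitochondrial share was 4.46% and 5.50%. The libraries shared 75 barcode sequences, 3 surface epithelial cells had such a barcode, and none was surface epithelial in both. Scrublet called 6 of the KO surface epithelial cells (1.26%) and 0 of the WT ones doublets; no cell was removed for this. Their germ cell sum, which the rule held under 10, had a median of 1.52 UMIs per 10000 in KO and 1.12 in WT.

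The cells fitted their label by the markers that the rule did not use. Levels are given as UMIs per 1000000 UMIs summed over a class (CPM), and ratios as log2 ratios of CPM. Krt18, a keratin of simple epithelia (ENSMUSG00000023043, chr15:102028180-102032027 in GRCm38), stood at 745 CPM in KO and 750 CPM in WT surface epithelial cells, against 225 and 180 CPM on the pregranulosa side and 17.4 and 9.47 CPM on the collagen side. Aldh1a2, which makes retinoic acid in mesothelia (ENSMUSG00000013584, chr9:71215789-71296243), stood at 261 and 263 CPM, against 115 and 107 CPM on the pregranulosa side and 26.9 and 29.5 CPM on the collagen side. Lrrn4, a leucine-rich repeat membrane protein of mesothelial cells (ENSMUSG00000043110, chr2:132868305-132880891), was sparse but also highest in surface epithelial cells. It stood at 26.1 and 25 CPM, against 4.91 and 3.92 CPM on the pregranulosa side and 5.44 and 1.89 CPM on the collagen side. The ratio to all other somatic cells was 2.34 in KO and 2.69 in WT for Krt18, 1.68 and 1.80 for Aldh1a2 and 2.51 and 2.99 for Lrrn4. Since the cells were chosen on these same libraries, every comparison of them with other cells is a description.

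The genes of the rule itself are given for reference only. Krt19 (ENSMUSG00000020911, chr11:100140810-100148665) stood at 722 CPM in KO and 803 CPM in WT, Krt7 (ENSMUSG00000023039, chr15:101411043-101430313) at 274 and 278 CPM, and Upk3b (ENSMUSG00000042985, chr5:136038496-136046487), a uroplakin, at 430 and 420 CPM. These levels chose the cells and support nothing. Across single cells the 3 markers that the rule left out were unevenly detected. Krt18 had a UMI in 96.9% of KO and 100% of WT surface epithelial cells, and in 81.8% and 86.2% of them once every cell was thinned to 3000 UMIs. Aldh1a2 had one in 92.1% and 98.4% of cells, or 52.7% and 52.9% after thinning, and Lrrn4 in 23.4% and 32.3%, or 7.11% and 7.94%. Free RNA or doublets may add to such shares, and their part was not tested. Scrublet called 10.0% of KO and 4.02% of WT germ-side cells doublets. On the germ side, where the median depth was 11851 and 17310 UMIs, Krt18 had a UMI in 6.91% and 5.96% of cells, or 2.36% and 1.49% after thinning.

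**Figure D1:**
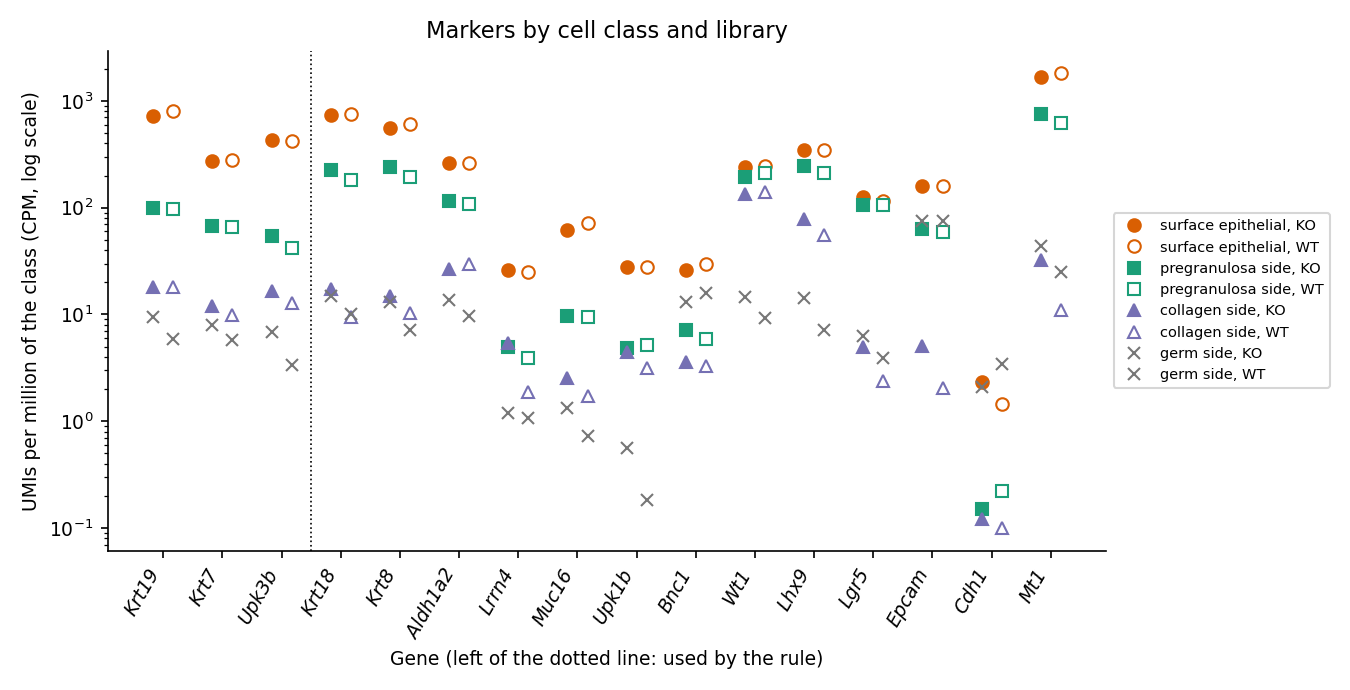
Level of 16 marker genes (CPM, log scale) in surface epithelial, pregranulosa-side, collagen-side and germ-side cells, with filled symbols for KO and open symbols for WT (crosses for the germ side in both). Genes left of the dotted line were used to choose the cells, values under 0.1 are drawn at 0.1, and the KO and WT surface epithelial points lie almost level for each gene; Krt18 for example stands at 745 and 750 CPM.

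The edge of the class was gradual. The 39 KO cells just inside the limit, with a keratin and uroplakin sum between 5 and 7, had 476 CPM of Krt18 and 267 CPM of Aldh1a2, and the 17 KO cells just outside, with a sum between 3 and 5, had 405 and 203 CPM. In WT the 7 cells just inside had 332 CPM of Krt18 and the 3 cells just outside 341 CPM. A further 300 KO and 121 WT cells reached the sum of 5 but had a higher pregranulosa sum. They carried 603 and 626 CPM of Krt18 and 1694 and 1737 CPM of Mt1, close to the levels of the class itself. Cells with both programmes thus lay on both sides of this limit. The surface epithelial cells themselves had a median pregranulosa sum of 6.70 UMIs per 10000 in KO and 7.16 in WT. Their highest pregranulosa sums were 20.8 and 25.1. Another 31 KO and 18 WT cells were left out for their collagen sum, with 238 and 127 CPM of Krt18. Their Krt8, Mt1 and Lgals2 were also below the class in both libraries. Other markers were not as low in them. Lrrn4 stood at 123 CPM in KO and 26.3 CPM in WT, against 26.1 and 25 CPM in the class. Aldh1a2 stood at 196 and 223 CPM against 261 and 263 CPM, and Wt1 at 246 and 289 CPM against 241 and 247 CPM. These cells therefore kept a part of the markers of the class.

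Promoters of 3 marker genes are shown as examples of windows that hold a TEAD or AP-1 core, one of them Upk3b, a gene of the rule. The promoters of Krt18, Aldh1a2, Krt7, Fndc1, Muc16, Tnfrsf12a, Unc45b and Tspan8 held neither core. Each sequence is the 250 bases before the RefSeq start in GRCm38.p6, read 5′ to 3′ along the gene, and the capitals mark GGAATG or CATTCC, the core bound by TEAD factors, and TGANTCA, the core bound by AP-1. Upk3b (chr5:136038246-136038495, plus strand), Lrrn4 (chr2:132880863-132881112, minus strand) and Cldn15, a claudin of the tight junction that was among the genes furthest above the other somatic cells (chr5:136967619-136967868, plus strand), read as follows.
Upk3b: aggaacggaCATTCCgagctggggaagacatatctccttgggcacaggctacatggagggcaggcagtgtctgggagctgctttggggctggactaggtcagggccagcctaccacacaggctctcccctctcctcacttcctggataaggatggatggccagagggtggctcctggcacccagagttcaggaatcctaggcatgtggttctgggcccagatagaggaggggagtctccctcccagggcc
Lrrn4: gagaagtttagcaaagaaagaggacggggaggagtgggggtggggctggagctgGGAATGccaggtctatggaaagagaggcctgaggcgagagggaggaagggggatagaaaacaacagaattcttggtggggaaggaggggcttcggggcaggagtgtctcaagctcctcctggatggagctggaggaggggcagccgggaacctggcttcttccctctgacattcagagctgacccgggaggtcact
Cldn15: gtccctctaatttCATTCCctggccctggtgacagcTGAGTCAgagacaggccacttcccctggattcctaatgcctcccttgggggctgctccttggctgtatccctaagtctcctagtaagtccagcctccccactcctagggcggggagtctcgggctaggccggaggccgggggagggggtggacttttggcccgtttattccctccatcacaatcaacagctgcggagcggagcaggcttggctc
Counted from the start of transcription, the TEAD core began at position -241 in Upk3b, -196 in Lrrn4 and -237 in Cldn15, where the AP-1 core began at -214. Cldn15 held another TEAD core that began at -1 and ran past the bases shown, so it is not in capitals. A match is a description of the letters and not evidence of binding.

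Over all genes, the window of 250 bases before to 50 after the start was searched on both strands. A window was found for 248 of the 321 genes that were 2-fold or more higher in surface epithelial than in other somatic cells, genes of the rule left out. The TEAD core stood in 18.95% of these genes (14.3% to 24.4%), in 13.8% of the 8291 genes compared that have a window and in 16.6% of all 27025 genes with a window. The AP-1 core stood in 8.87% (5.64% to 13.1%), 5.33% and 8.97%. Among the 98 genes with a window that were higher than on both the pregranulosa and the collagen side, 13 held the AP-1 core (13.3%, 7.26% to 21.6%) and 19 the TEAD core (19.4%, 12.1% to 28.6%). AGATAA, the core bound by GATA factors, stood in 8.06% of the 248 genes and 7.06% of the genes compared. None of these shares was tested.

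Of the 10809 genes with 100 or more UMIs over surface epithelial and other somatic cells in each library, 324 (3.00%) were called higher in surface epithelial cells, which means 2-fold or more in both libraries, and 806 (7.46%) were called lower. Counts over all genes, here and against each neighbour, keep the genes of the rule, whose outcome the rule set. Without those genes 321 were called higher. The median ratio over all 10809 genes was -0.07 in KO and -0.09 in WT. The 12 genes furthest above the other somatic cells were Krt17, Gpm6a, Krt14, Cldn15, Fndc1, Efemp1, Tmem108, Muc16, Tnfrsf12a, Lgals2, Unc45b and Tspan8, with ratios from 3.02 to 3.90. Krt17 and Krt14 are keratins better known from stratified epithelia. Krt17 stood at 31.1 CPM in KO and 35.1 CPM in WT against 2.44 and 2.49 CPM in other somatic cells, and Krt14 at 25.8 and 27.3 CPM against 2.22 and 1.83 CPM. Krt17 was detected in a minority, with a UMI in 19.7% of KO and 28.6% of WT cells, or 6.07% and 9.52% after thinning. Gpm6a, at 25.2 and 25.9 CPM, had a UMI in 22.0% and 30.2% of cells. At such levels detection does not show which cells express a gene. Krt5, which usually pairs with Krt14, had 0 UMIs in both libraries, which allows up to 3 UMIs in each.

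Among the rest were genes of surface and secreted proteins. Muc16, the CA125 mucin of mesothelial surfaces, stood at 62.4 CPM in KO and 71.3 CPM in WT surface epithelial cells against 7.14 and 6.80 CPM in other somatic cells. Gpm6a, a membrane glycoprotein, stood at 25.2 and 25.9 CPM against 1.95 and 2.09 CPM. Lgals2, a galectin, stood at 111 and 107 CPM against 13.2 and 9.20 CPM. Tmem108 stood at 92.4 and 97.8 CPM against 10.6 and 6.98 CPM, and Tnfrsf12a, the receptor of the cytokine TWEAK, at 66.0 and 81.1 CPM against 7.75 and 7.20 CPM. Efemp1, a secreted fibulin, was at 17.4 and 26.5 CPM against 1.98 and 2.44 CPM. Exons of Lgals2, Tmem108, Tspan8 and Unc45b overlap a gene on the other strand, and whether the counting used strand is not given in the sources used here.

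The 8 genes furthest below the other somatic cells were Hba-x, Hbb-y, Defb19, Lyz2, Ly6d, Lrfn5, Sparcl1 and Srgn. They mark red cells (Hba-x, Hbb-y), macrophages and other blood cells (Lyz2, Srgn), pregranulosa cells (Defb19 and Ly6d, at 49.0 and 41.6 CPM and 75.9 and 61.2 CPM there) and stroma (Lrfn5 and Sparcl1, at 31.2 and 33.9 CPM and 682 and 632 CPM on the collagen side). Hba-x, Defb19, Lyz2, Ly6d, Lrfn5 and Srgn had 3 or fewer UMIs in the surface epithelial cells of each library. Without the haemoglobin-rich cells among the other somatic cells, the ratio nearer to 0 was -0.20 for Hba-x, and that of Hbb-y differed in sign between the libraries. Defb19, a beta-defensin, had 1 UMI in each, a ratio of -7.43 (-12.73 to -4.95) in KO and -6.45 (-11.75 to -3.96) in WT.

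**Figure D2:**
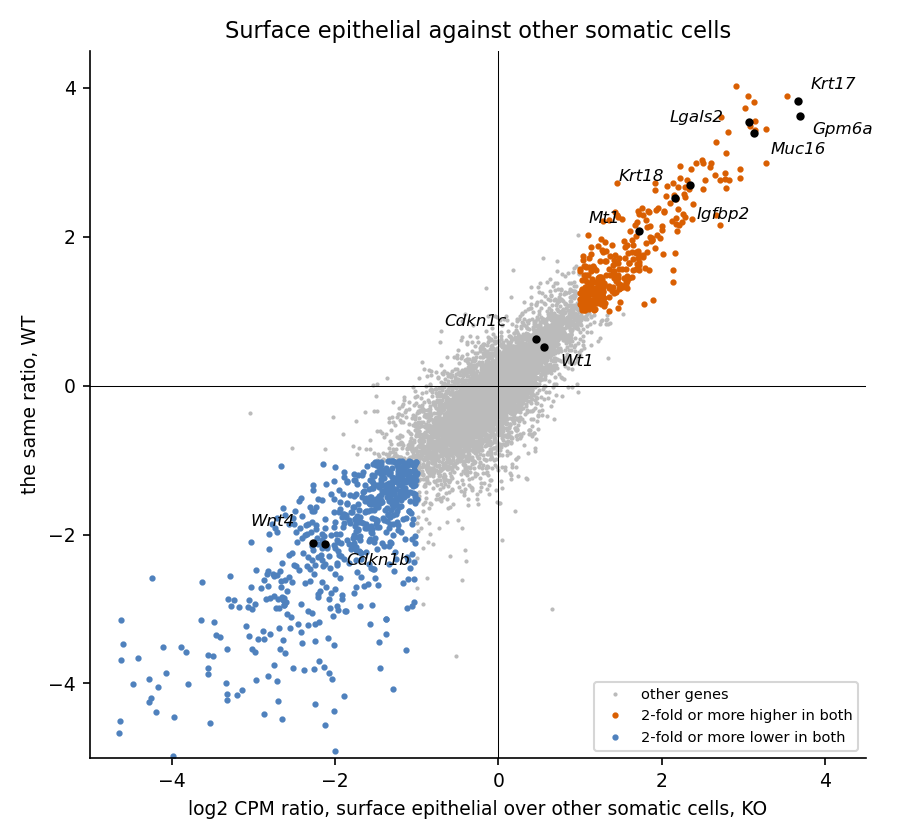
Log2 CPM ratio of surface epithelial over other somatic cells in KO (horizontal) against WT (vertical), 1 point per gene, for the compared genes with 10 or more UMIs in surface epithelial cells and with the genes of the rule left out; 15 genes lie below the axes. Genes called higher are orange and genes called lower are blue, and Krt17, Gpm6a, Muc16 and Lgals2 sit at the upper right in both libraries while Wnt4 and Cdkn1b sit at the lower left.

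Measured against each neighbour, the surface epithelial cells stood apart by similar numbers of genes. Against the pregranulosa side, 418 of 9606 genes were called higher (4.35%) and 581 called lower (6.05%). Against the collagen side, 420 of 8106 genes were called higher (5.18%) and 654 lower (8.07%). Of these, 124 genes were higher than both neighbours, which is 29.7% of the first list and 29.5% of the second, and 120 were lower than both, 20.7% and 18.3%. Both comparisons use the same surface epithelial cells. The 124 genes included Gpm6a, Krt14, Krt17, Cldn15, Tmem108, Efemp1, Tnfrsf12a and Muc16. Smpd3, Aqp5, Ccnd1 and Gbp2 were named after their values were seen. Ccnd1, the cyclin D1 of G1 phase, was also among them, with 108 CPM in KO and 110 CPM in WT against 22.7 and 22.6 CPM on the pregranulosa side and 7.85 and 12.8 CPM on the collagen side. Gbp2, a guanylate-binding protein, stood at 94.4 and 105 CPM against 21 and 12.2 CPM and 1.09 and 2.05 CPM.

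Some genes placed the surface epithelial cells between their neighbours. S100a6, a calcium-binding protein, stood at 65.6 CPM in KO and 77.1 CPM in WT, above 3.19 and 3.03 CPM on the pregranulosa side and below 127 and 133 CPM on the collagen side. Osr1, a transcription factor of early mesoderm, did the same with 32.2 and 33.6 CPM against 5.01 and 7.31 CPM and 66.2 and 56.8 CPM. Irx3, a homeobox factor of granulosa cells, ran the other way, with 157 CPM in both libraries against 434 and 496 CPM on the pregranulosa side and 15.7 and 8.37 CPM on the collagen side. In all, 20 genes were called above the pregranulosa side and below the collagen side, and another 20 the reverse, of 7892 compared in both. S100a6 and Osr1 were not among the first 20. S100a6 lay within 2-fold of the collagen side in both libraries (-0.96 and -0.78), and Osr1 did so in WT.

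Mesothelial genes were often higher than in other somatic cells. Of 17 compared genes in a list of mesothelium and coelomic epithelium, 11 were called higher than in other somatic cells and 1 lower, with a median ratio of 1.55 in KO and 1.86 in WT against -0.07 and -0.09 over all genes. Over all genes compared, 3.00% were called higher and 7.46% lower. Against the collagen side 11 of 16 were called higher and 3 lower, where all genes gave 5.18% and 8.07%. Krt8, the partner of Krt18, stood at 560 and 613 CPM, and Upk1b, a uroplakin, at 28.1 and 27.9 CPM against 4.26 and 4.10 CPM in other somatic cells. Podxl, the anti-adhesive sialomucin of apical membranes, stood at 164 and 193 CPM against 56.0 and 53.2 CPM. Bnc1, a zinc finger factor of epithelia, stood at 26.1 and 29.6 CPM against 5.68 and 4.67 CPM, and Crb2, an apical polarity protein, at 16.5 and 16.7 CPM against 2.41 and 2.44 CPM. Not every mesothelial marker was present. Msln (mesothelin) had only 3.02 and 4.89 CPM, Krt5 and Anxa8 had 0 UMIs, and Nkain4 was called lower, with 5.16 and 8.34 CPM against 62.7 and 65.4 CPM on the collagen side.

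The junctions of the layer mixed epithelial and mesothelial types. Epcam, an epithelial adhesion molecule, stood at 160 CPM in both libraries against 63.7 and 59.6 CPM on the pregranulosa side and 5.07 and 2.05 CPM on the collagen side. Cdh3 (P-cadherin) stood at 45.3 and 43.7 CPM against 12.3 and 11.3 CPM in other somatic cells. Cdh2 (N-cadherin), at 76.1 and 64.1 CPM, was far above Cdh1 (E-cadherin), at 2.31 and 1.44 CPM, although transcript length was not corrected for. Of 10 compared junction genes, 4 were called higher (Cldn15, Epcam, Cdh3 and Pard6b) and 1 lower (Pkp2), against 3.00% and 7.46% of all genes compared. Pax8, a factor of the rete and duct epithelium, had 0.71 and 1.73 CPM, so the only compared gene of that list was Epcam, which other epithelia share.

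Genes of the basement membrane and of the cell cortex are read against shares of 3.00% called higher and 7.46% called lower over all genes. Of 15 basement membrane genes, 1 was called higher (Lama5, at 7.999 and 9.78 CPM) and 3 lower (Nid1, Lama2 and Lama4). Nid1 (nidogen 1) stood at 11.9 and 11.2 CPM against 29.6 and 29.8 CPM on the pregranulosa side and 95.9 and 98.2 CPM on the collagen side. Of 18 genes of actin, annexins and S100 proteins, 2 were called higher and 1 lower (S100a13). Ezr (ezrin), which ties actin to the membrane of microvilli, stood at 169 and 185 CPM against 29.8 CPM in the other somatic cells of both libraries, and Anxa1 (annexin A1) at 111 and 120 CPM against 15.8 and 17.7 CPM.

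Gonadal transcription factors were called against other somatic cells at shares near those of all genes (3.00% and 7.46%). Of 23 compared factors, 1 was called higher (Bnc1) and 3 lower (Tcf21, Tbx2 and Tbx3). Against the collagen side, 5 of 21 were called higher and 8 lower, where all genes gave 5.18% and 8.07%. Wt1, the factor that marks coelomic epithelium and its descendants, stood at 241 CPM in KO and 247 CPM in WT against 193 and 209 CPM on the pregranulosa side and 134 and 141 CPM on the collagen side. Gata4 stood at 66.7 and 61.5 CPM, Gata6 at 184 and 187 CPM and Emx2 at 149 and 142 CPM, all within 2-fold of the other somatic cells. Lhx9 stood at 344 and 349 CPM against 244 and 211 CPM and 77.8 and 56.0 CPM.

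WNT genes were called mainly against the collagen side, where 5 of 16 were higher and 7 lower (all genes 5.18% and 8.07%). Against the pregranulosa side 0 of 18 were higher and 1 was lower, a share near the 4.35% and 6.05% of all genes. Wnt4, a ligand of ovarian differentiation, was lower than on both sides, with 49.95 CPM in KO and 58.4 CPM in WT against 237 and 254 CPM on the pregranulosa side and 332 and 338 CPM on the collagen side. Rspo1, the R-spondin that enhances WNT signals, stood at 174 and 150 CPM against 227 and 226 CPM and 34.1 and 34.4 CPM. Lgr5, an R-spondin receptor, stood at 126 and 115 CPM, within 2-fold of the 106 CPM of the pregranulosa side and far above 4.95 and 2.37 CPM on the collagen side. Of 22 compared genes of this group, 3 were called higher than in other somatic cells (Wnt9a, Wnt2b and Sp5) and 3 lower (Wnt4, Sfrp1 and Fzd7), where all genes gave 3.00% and 7.46%. Sp5 and Axin2 are common targets of WNT signalling. Sp5 stood at 89.4 and 97.2 CPM against 44.1 and 39.8 CPM in other somatic cells, and Axin2 at 70.6 and 73.6 CPM against 46.8 and 42.5 CPM, below 2-fold.

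Growth factor genes went both ways. Of 25 compared genes, 6 were called higher and 5 lower than in other somatic cells, where all genes gave 3.00% and 7.46%. Igfbp2, a binding protein of insulin-like growth factors, stood at 987 CPM in KO and 1079 CPM in WT against 323 and 284 CPM on the pregranulosa side and 50.7 and 44.7 CPM on the collagen side. Igfbp3 stood at 155 and 178 CPM against 50.5 and 42.3 CPM in other somatic cells. Fgf18 stood at 44.6 and 38.0 CPM against 9.11 and 6.54 CPM, and Fgf9 at 15.3 and 17.8 CPM against 3.80 and 4.01 CPM. The other 2 higher genes were the PDGF ligands Pdgfa and Pdgfc, and the 5 lower were Bmp2, Tgfb2, Inhba, Igfbp4 and Id2. Bmp2 stood at 20.8 and 22.7 CPM against 72.4 and 78.3 CPM on the pregranulosa side. Kitl, the ligand that germ cells read through KIT, stood at 304 and 234 CPM against 678 and 655 CPM there. Amhr2, the receptor of anti-Müllerian hormone, stood at 198 and 191 CPM against 342 and 340 CPM, within 2-fold.

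The Notch and retinoic acid genes were compared with other somatic cells, where 3.00% of all genes were called higher and 7.46% lower. Of 5 compared Notch genes 4 were called lower (Notch1, Notch2, Notch3 and Hey1), and Hes1, a target of the pathway, stood at 665 and 704 CPM against 1208 and 1431 CPM on the pregranulosa side. Of 14 compared retinoic acid genes 2 were called higher (Aldh1a2 and Rbp4) and 3 lower, Crabp1 and Dhrs3 among them. Dhrs3, a retinaldehyde reductase, stood at 9.78 CPM in KO and 6.04 CPM in WT against 56.9 and 63.3 CPM on the pregranulosa side. Aldh1a1, another retinaldehyde dehydrogenase, stood at 64.0 and 94.6 CPM against 205 and 184 CPM, which was below 2-fold in WT.

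Transcripts of dividing cells were more frequent in the surface epithelium than on the pregranulosa side. A cell was counted as mitotic in transcripts if 11 genes of the G2 and M phases (Mki67, Top2a, Cdk1, Ccnb1, Ccnb2, Ccna2, Cenpf, Birc5, Tpx2, Aurka and Aurkb) gave 3 or more of its 3000 thinned UMIs. The share was 25.3% (21.5% to 29.5%) of KO and 24.9% (18.9% to 31.7%) of WT surface epithelial cells, 4.07% (3.29% to 4.98%) and 2.76% (1.85% to 3.94%) on the pregranulosa side, and 19.2% (17.1% to 21.5%) and 18.9% (16.0% to 22.1%) on the collagen side. Few cells lay at the limit, with 28 KO and 7 WT surface epithelial cells at 2 UMIs and 18 and 7 at 3. Without thinning, when deeper cells reach 3 UMIs more easily, the shares were 41.8% and 42.9% in surface epithelial, 8.42% and 9.89% in pregranulosa-side and 24.3% and 30.4% in collagen-side cells. Summed over cells, the 11 genes took 1108 CPM in KO and 1263 CPM in WT surface epithelial cells against 306 and 197 CPM on the pregranulosa side.

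**Figure D3:**
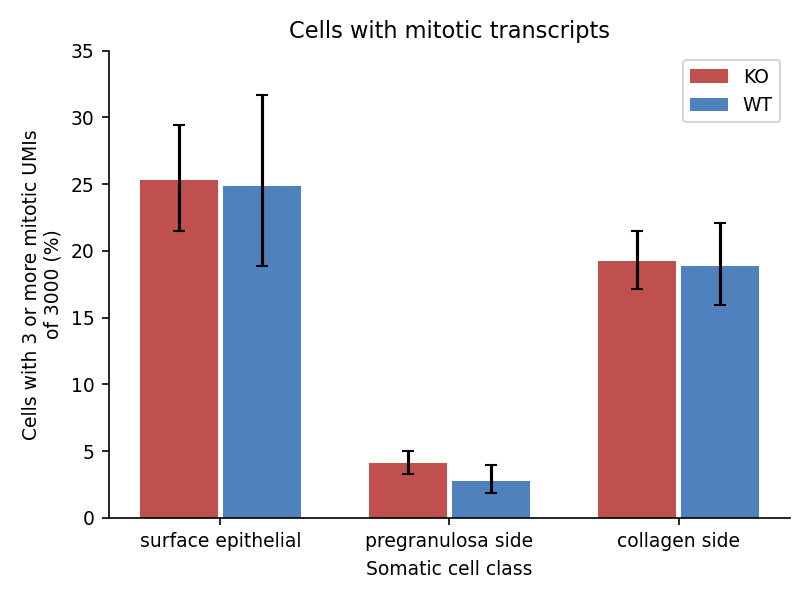
Percent of cells with 3 or more UMIs of 11 mitotic genes among 3000 thinned UMIs, by somatic class, for KO (red) and WT (blue), with exact 95% binomial intervals as error bars. The surface epithelial bars stand at 25.3% and 24.9% and the pregranulosa-side bars at 4.07% and 2.76%.

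Over the list of 20 cell cycle genes, 7 were called higher in surface epithelial than in other somatic cells and none lower (all genes 3.00% and 7.46%), with a median ratio of 0.90 in KO and 1.07 in WT. Against the pregranulosa side 17 of 19 compared genes were called higher and none lower (all genes 4.35% and 6.05%), and against the collagen side none of 20 was called in either direction. Cdkn1b (p27), the CDK inhibitor that accompanies the arrest of pregranulosa cells, stood at 36.3 CPM in KO and 35.7 CPM in WT against 231 and 233 CPM on the pregranulosa side. Cdkn1c (p57), in contrast, was high in both, with 2380 and 2691 CPM against 2553 and 2626 CPM, and lower on the collagen side with 471 and 510 CPM.

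Within the surface epithelium, the cells with mitotic transcripts differed from the rest beyond the mitotic genes themselves. Ccnd1 was lower in them by ratios of -1.02 in KO and -1.26 in WT. Igfbp5 stood at 438 CPM in them against 890 CPM in the rest of the KO cells, and at 490 against 817 CPM in WT. Lgals7, a galectin, was lower by -0.68 in both libraries, Krt18 by -0.39 and -0.41, Ddit4 by -0.86 and -0.99 and Lgr5 by -0.54 and -0.51. Other genes were higher in the cells with mitotic transcripts, Tagln2 by 1.29 and 1.28, Ptn by 0.87 and 2.31 and S100a6 by 0.45 and 1.53. Wt1 (0.02 and 0.09) and Krt8 (0.04 and -0.18) differed little. The mitotic cells were also deeper, with medians of 14009 against 10844 UMIs in KO and 21995 against 16769.5 in WT, and the part of depth in these ratios was not tested.

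The genes that varied most from cell to cell among surface epithelial cells were read from thinned counts as variance over mean, which is 1 where counts vary by sampling alone. The median over 3575 genes was 0.987 for the lower of the 2 libraries. Genes in this paragraph were named by their spread. Apart from Malat1, a nuclear non-coding RNA, and Gm42418, the highest was Mt1 (metallothionein 1, which binds zinc and copper) with 7.10 in KO and 6.86 in WT. The histone and mitotic genes Hist1h2ap, Ube2c, Hmgb2, Hist1h1b, Cenpf and Top2a followed, with Cdkn1c at 3.84 and 4.48, S100a6 at 2.98 and 4.24, Lgals1 at 2.95 and 3.55, Atf3 at 2.87 and 3.13 and Fos at 2.83 and 3.14. The identity genes differed in this measure. For the lower library, Krt18 gave 1.54 (rank 77 of 3575), Epcam 1.49 (rank 91) and Krt8 1.33 (rank 152), while Wt1 gave 1.14 (rank 367) and Aldh1a2 0.92 (rank 2958). Krt19, a gene of the rule, gave 1.66 (rank 60).

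Mt1 and Mt2 varied together. Mt1 had a median of 11.6 UMIs per 10000 in KO and 13 in WT surface epithelial cells, with the middle cells between 5.16 and 23.1 and between 6.14 and 24.5 and the highest cells at 143 and 112. Across cells the rank correlation of Mt1 with Mt2 was 0.64 over 478 KO cells and 0.71 over 189 WT cells, while Mt1 with the cell's total UMIs gave 0.01 and -0.02. Summed over cells, Mt1 stood at 1673 and 1805 CPM against 750 and 621 CPM on the pregranulosa side and 32.1 and 11.1 CPM on the collagen side, and Mt2 at 502 and 571 CPM against 154 and 126 CPM and 10.5 and 1.89 CPM. Both were called higher than both neighbours.

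The second varying set was of immediate early genes, which respond within minutes to growth factors, stress or cell dissociation. Atf3 correlated across cells with Fos (0.35 in KO and 0.38 in WT) and with Jun (0.28 and 0.27). Atf3 itself stood at 584 CPM in KO and 690 CPM in WT against 128 and 106 CPM on the pregranulosa side and 29.4 and 19.9 CPM on the collagen side. Ier3 stood at 228 and 219 CPM against 82.3 and 89.0 CPM in other somatic cells, and Btg2 at 276 and 379 CPM against 137 and 179 CPM. The rest of the list was less distinct: 4 of 17 genes were called higher and none lower (all genes 3.00% and 7.46%), with a median ratio of 0.19 and 0.21, and Fos stood at 747 and 817 CPM against 834 and 942 CPM on the pregranulosa side. Ovaries were dissociated in trypsin before capture, and the part of this step in these levels was not tested.

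Of 11 compared genes of interferon response and MHC class I, none was called higher and 2 were called lower than in other somatic cells, where all genes gave 3.00% and 7.46%. Against the collagen side 1 was called higher (Irf1) and none lower, and Gbp2, which interferon also induces and which is not in the list, was higher than both neighbours. Bst2 (tetherin) stood at 18 CPM in KO and 13.8 CPM in WT against 318 and 271 CPM on the pregranulosa side, and Ifitm1 at 339 and 281 CPM against 1077 and 1016 CPM.

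Markers of other cell types stayed low with a few exceptions. Of 7 compared immune genes all were called lower than in other somatic cells, but the list summed to 23.5 CPM in KO and 1.73 CPM in WT, and in the thinned counts 1 KO cell alone held 22 immune UMIs. Endothelial Cdh5 stood at 1.96 and 0.29 CPM, Emcn at 4.09 and 0 CPM and Pecam1 at 3.91 and 0.86 CPM, yet Kdr, the VEGF receptor that endothelium is best known for, stood at 93.7 and 86.0 CPM against 34 and 27.3 CPM in other somatic cells and was called higher than both neighbours. Of 13 compared stromal genes 8 were lower and none higher, against 7.46% and 3.00% of all genes. Dcn (decorin), at 241 and 214 CPM against 50.8 and 39.2 CPM on the pregranulosa side, was a stromal gene that the layer kept. Of germ cell genes that the rule did not use, Taf7l stood at 22.9 CPM in KO and 19.6 CPM in WT against 24.99 and 22.02 CPM in other somatic cells and 644 and 637 CPM on the germ side. Ooep, a gene of oocytes named after its values were seen, stood at 41.1 and 49.2 CPM against 3.37 and 4.51 CPM on the germ side and 9.57 and 13 CPM on the pregranulosa side.

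The comparison of KO with WT asked what the loss of GR left different in this layer. Nr3c1 itself had 28 UMIs in KO and 68 in WT surface epithelial cells, or 4.98 and 19.6 CPM, a ratio of -1.97 (-2.66 to -1.32). The ratio was -1.87 in other somatic cells, where it stood at 7.63 and 28.0 CPM. Exon 3 is the deleted part, while the chemistry reads the 3′ end of the transcript, so this count does not test the deletion. Nr3c1 had a UMI in 5.86% of KO and 25.9% of WT cells, or 1.67% and 4.76% after thinning. Germ cells had more of it, with 11.5 and 71.6 CPM on the germ side.

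Surface epithelial cells made up 10.5% (9.62% to 11.4%) of KO somatic cells and 8.88% (7.71% to 10.2%) of WT somatic cells. The intervals overlap. Pregranulosa-side cells made up 49.1% and 49.4% and collagen-side cells 28.7% and 30.6%. Of kept cells, germ cells included, the surface epithelium made up 3.01% and 1.99%, a share that follows the mixing of the sorted fractions.

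The profiles of KO and WT surface epithelial cells were close. Of 7537 genes with 100 or more UMIs in the 2 libraries together, 11 were called higher in KO (0.146%) and 2 lower (0.0265%), both by 2-fold or more. The median ratio of KO over WT was 0.00 and 95% of genes lay between -0.45 and 0.46, and the Pearson correlation across these genes of ln(UMIs per 10000 + 1) was 0.997, where genes are not replicates. Slc7a2, a transporter of cationic amino acids (ENSMUSG00000031596, chr8:40862396-40922308), showed the largest ratio, with 108 UMIs in KO and 3 in WT, or 19.2 and 0.86 CPM, a ratio of 4.48 (2.89 to 6.78). It had a UMI in 18% of KO and 1.59% of WT cells, or 4.81% and 0% after thinning. The difference reached beyond this layer, with 29.7 against 2.36 CPM on the pregranulosa side and 24.5 against 11.2 CPM on the collagen side. An exon of Slc7a2 overlaps Gm26584 on the other strand.

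**Figure D4:**
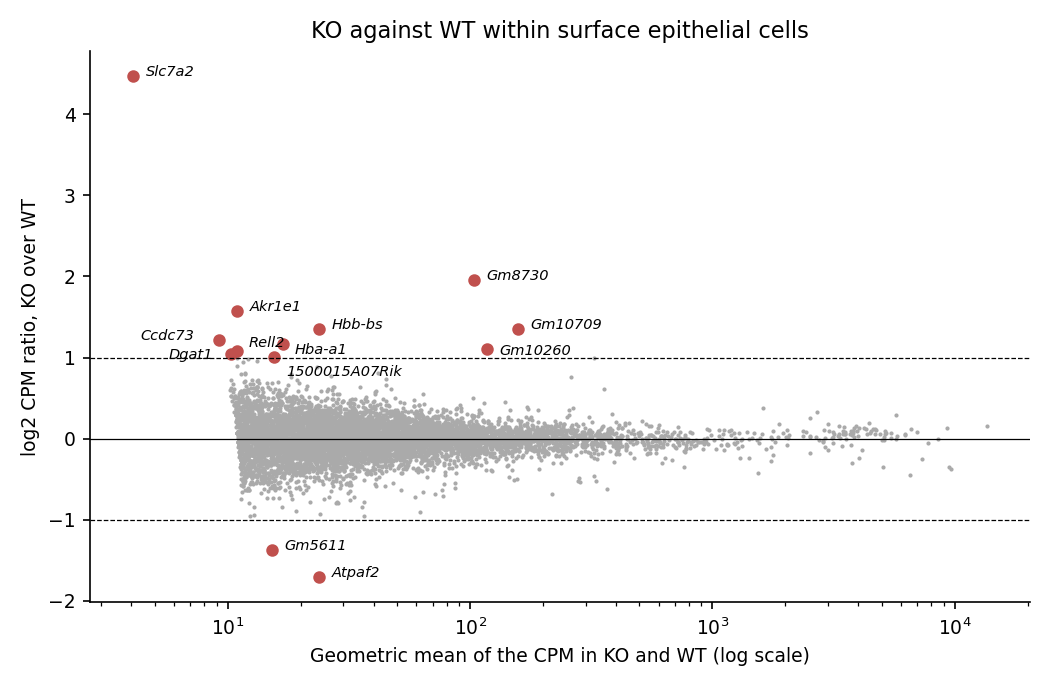
Log2 CPM ratio of KO over WT within surface epithelial cells (vertical) against the geometric mean of the 2 levels (log scale), 1 point per gene for the 7537 genes compared, with dashed lines at 2-fold. The 13 genes beyond 2-fold are red and named, and Slc7a2 at 4.48 stands far from the rest.

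Several of the other named genes share sequence with a close copy. Gm8730 (ratio 1.96, 204 against 52.6 CPM), Gm10709 (1.36, 252 against 98.3 CPM), Gm10260 (1.11, 172 against 79.9 CPM) and Gm5611 (-1.38, 9.42 against 24.4 CPM) are copies of Rplp0, Rpl29, Rps18 and Npm1 at 97.7% to 100% identity over 200 or more bases, so their counts are uncertain. In other somatic cells their ratios were 1.93, 1.35, 0.80 and -0.75. Hbb-bs (1.35, 38.0 against 15.0 CPM) and Hba-a1 (1.17, 25.2 against 11.2 CPM) are haemoglobins with near-identical copies, whose levels on the germ side, 846 against 328 CPM and 780 against 339 CPM, were also higher in KO. Akr1e1, an aldo-keto reductase, stood at 18.8 and 6.33 CPM (1.57, 0.90 to 2.31), with 0.71 in other somatic cells, and Ccdc73 at 14.0 and 6.04 CPM (1.22, 0.51 to 1.99), with 0.68. Exons of Ccdc73 overlap Eif3m on the other strand.

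Atpaf2, an assembly factor of the mitochondrial ATP synthase, was lower in KO by -1.71 (-2.13 to -1.30), with 74 UMIs against 150. Of its WT UMIs 74.0% came from 1 cell, and without the cell with the most UMIs in each library the ratio was 0.19. Named after their values were seen, Rell2 (1.08), Dgat1 (1.04) and 1500015A07Rik (1.00) complete the 13 genes, and exons of the first and the last overlap a gene on the other strand.

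Genes that GR regulates in many tissues differed little. Of 16 such genes, 11 had enough UMIs and none was called, a share near the background of 0.146% and 0.0265%. Their median ratio was -0.11, and -0.06 in other somatic cells. Zfp36, which destabilizes mRNA, stood lowest at -0.43 (-0.70 to -0.16), with 45.2 CPM in KO against 60.7 CPM in WT and a ratio of -0.34 in other somatic cells. Ddit4 stood highest at 0.35 (0.21 to 0.50), with 215 against 168 CPM. Fkbp5, a chaperone and classic GR target, stood at 83.7 and 75.3 CPM (0.15, -0.07 to 0.38), and Tsc22d3 (GILZ) at 15.6 and 19.0 CPM (-0.28, -0.76 to 0.20). In 6 of the 11 genes the counting interval left out 0, with 1 above and 5 below. The share of all compared genes with such an interval was not computed, and these intervals leave out the spread between cells.

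Mt1 and Mt2, both known targets of GR and of zinc, had slightly lower summed levels in KO, with ratios of -0.11 (-0.16 to -0.06) and -0.19 (-0.27 to -0.10). These intervals leave out the spread between cells. In thinned counts the variance over mean was 7.10 in KO and 6.86 in WT for Mt1, and 2.77 and 2.70 for Mt2. Whether the lower levels exceed this spread was not tested. The promoter of Mt1 (chr8:94178839-94179088, plus strand, 250 bases before the start) is shown because it holds the full palindrome GNACANNNTGTNC of a GR element, in capitals, which began at position -94.
Mt1: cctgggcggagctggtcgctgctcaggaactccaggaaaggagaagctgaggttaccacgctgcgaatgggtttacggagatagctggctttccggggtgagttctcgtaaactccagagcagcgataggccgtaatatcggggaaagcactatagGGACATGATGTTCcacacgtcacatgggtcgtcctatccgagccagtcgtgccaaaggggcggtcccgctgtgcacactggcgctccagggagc
Of the 248 genes higher in the surface epithelium that have a window, 4 held this motif (1.61%, 0.44% to 4.08%), against 0.31% of the genes compared and 0.54% of all genes with a window. Its presence says nothing of binding in these cells.

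**Figure D5:**
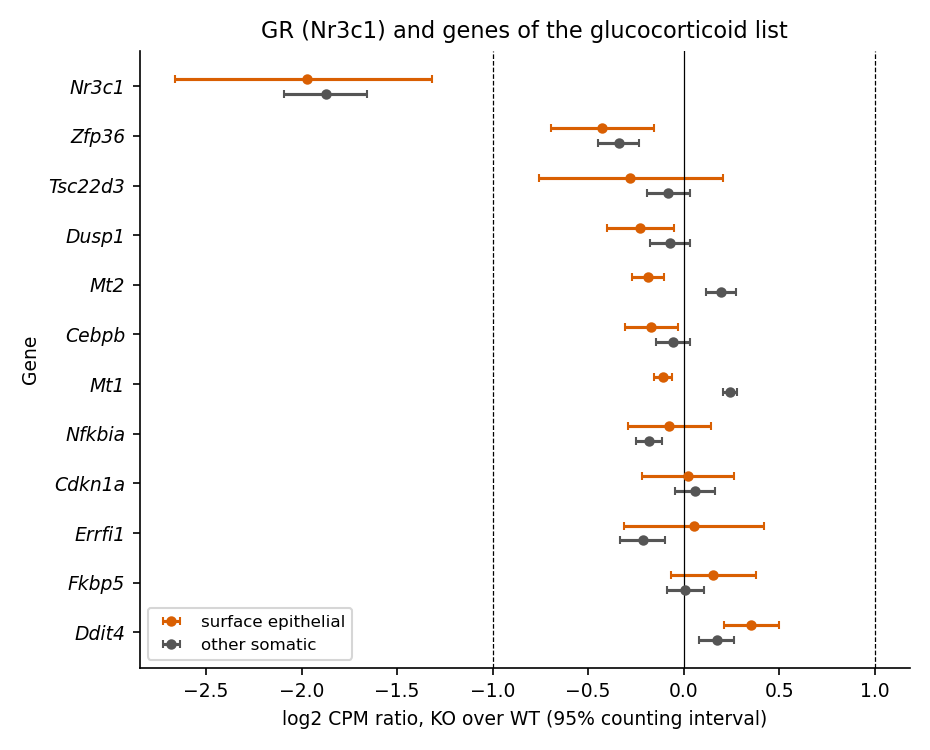
Log2 CPM ratio of KO over WT for Nr3c1 and the 11 genes of the glucocorticoid list with 100 or more UMIs, in surface epithelial (orange) and other somatic cells (grey), with 95% counting intervals and dashed lines at 2-fold. Nr3c1 lies at -1.97 and -1.87, and each listed gene lies within 2-fold in both.

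No gene of the mesothelium, junction, basement membrane, transcription factor, WNT, growth factor, retinoic acid, cell cycle or immediate early lists was called between KO and WT, which lists of this size would also give at the background of 0.146% and 0.0265%. For the list medians that follow, the brackets give the lowest and the highest gene and are not intervals. The median was -0.05 for 16 mesothelial genes (-0.60 to 0.29) and 0.05 for 9 junction genes (-0.41 to 0.51). It was 0.00 for 19 transcription factors (-0.64 to 0.55) and -0.11 for 20 cell cycle genes (-0.38 to 0.34). Among named members, with counting intervals in brackets again, Krt18 gave -0.01 (-0.08 to 0.06) and Aldh1a2 -0.01 (-0.13 to 0.11). Wt1 gave -0.04 (-0.16 to 0.09) and Epcam 0.00 (-0.15 to 0.16). The next genes stood lowest or highest in their lists, so their ratios do not stand for the lists. Efemp1 gave -0.60 (-1.03 to -0.18) and F11r, a junctional adhesion molecule, 0.51 (0.31 to 0.71). Irx5 gave -0.64 (-0.86 to -0.42), Sox11 0.55 (0.23 to 0.87) and Cdk1 -0.38 (-0.56 to -0.20). At the ends of other lists, Bmp4 gave -0.57 (-1.12 to -0.01) and Aldh1a1 -0.56 (-0.78 to -0.34). Inhbb gave 0.53 (0.03 to 1.05) and Junb -0.50 (-0.65 to -0.34). Kitl, which was not at an end of its list, gave 0.38 (0.26 to 0.50). Ptn, the lowest of the stromal genes, gave -0.95 (-1.28 to -0.63). Of germ cell genes that the rule did not use, Tex101 gave 0.76 (0.28 to 1.26), Syce3 0.51 (0.05 to 0.99) and Taf7l 0.23 (-0.20 to 0.68). All 7 compared genes of the germ cell list, genes of the rule included, lay above 0, from 0.22 to 0.76. Their median was 0.51, against 0.36 in other somatic cells, and 5 of the counting intervals lay above 0.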

How the data were processed

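The authors deposited raw UMI counts per gene and cell barcode, made by Cell Ranger 3.0.2 per the file headers from 10x Single Cell 3′ v3 reads, with build mm10 per the labels. The study's own later steps used Seurat 3.2.3 and were not repeated. Gene annotation, strand setting and treatment of reads with several matches are not given in the sources used here. Of 27998 gene identifiers, 27645 matched GENCODE M21, from which coordinates were taken.

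Counts were summed over the cells of a class (Python 3.11.15, numpy 2.4.6, scipy 1.17.1, pandas 2.3.3) and scaled to UMIs per 1000000 (CPM). Ratios carry exact conditional binomial intervals, shares Clopper-Pearson intervals, and a 0 against a higher count was set to 3 UMIs. With 1 library per group no test was run. Genes with 100 or more UMIs were compared (for surface epithelial against other cells, in each library), and a 2-fold ratio was the limit for a call. Named genes were the 12 highest and 8 lowest against other somatic cells, the 8 highest and 8 lowest called between KO and WT, Nr3c1 and members of 24 lists. Some listed genes are not reported here. Others are said to be named after their values were seen. The cells and lists were chosen with earlier results of these data known. Thinning drew 3000 UMIs per cell with a fixed seed and left out no cell. Scrublet was run in scanpy 1.11.5, near-identical copies were found with BLAST 2.17.0+ and figures drawn with matplotlib 3.10.9. In counts simulated with counting error alone for 7538 genes between KO and WT, 99% of 100 genes changed 4-fold and 96% of 100 changed 3-fold were called. Spread between cells, embryos or libraries was not simulated, and neither was a change of 2-fold.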

Additional observations from a re-analysis of the deposited data

Results flagged for a closer look

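Of 224 listed or named genes that could be compared between KO and WT in both surface epithelial and other somatic cells, 17 had counting intervals on opposite sides of 0 in the 2 kinds of cells, and in 9 of these at least 1 of the ratios was 0.25 or more in size. The share of all genes with such opposite intervals was not computed, and the intervals leave out the spread between cells. The difference between the 2 kinds of cells was not tested, since each group held 1 library. Lower in KO surface epithelial cells and higher in KO other somatic cells were Aldh1a1 (-0.56 against 0.21), Tagln2 (-0.61 against 0.20), Cenpf (-0.26 against 0.30), Atf3 (-0.24 against 0.30), Igfbp3 (-0.20 against 0.26) and Krt8 (-0.13 against 0.36). Higher in KO surface epithelial cells and lower in the others were Hbb-bs (1.35 against -0.06), Sox11 (0.55 against -0.14) and Nr2f2 (0.47 against -0.10). The Hbb-bs ratio was also above 0 on the pregranulosa side (1.23), the collagen side (0.49) and the germ side (1.37), and the other somatic cells include the haemoglobin-rich cells that the rule kept out of the surface epithelium. Hbb-bs stood at 38.0 CPM in KO and 15.0 CPM in WT surface epithelial cells.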

How the results depend on the processing

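No paired analysis was possible because each group held 1 library, and no replicate could be left out for the same reason. Depth was a limit of the comparison of KO with WT, since WT held 189 surface epithelial cells and genes under 100 UMIs were not compared. The share of surface epithelial cells among somatic cells was 12.4% in KO with a minimum of 5500 UMIs per cell, and 8.06% in KO and 7.33% in WT with a marker limit of 10. Against other somatic cells, 125 genes were higher and 366 lower with cells thinned to 3000 UMIs, 556 and 1354 with a 10-UMI filter, and 794 and 1449 at a 1.5-fold limit. Against the pregranulosa side these counts were 123 and 251, 807 and 1097, and 797 and 1347, and against the collagen side 113 and 279, 1012 and 1387, and 778 and 1125. Between KO and WT, 7 genes were higher and 4 lower with a marker limit of 10, 6 and 1 with thinned cells, 349 and 223 with a 10-UMI filter, 79 and 69 at a 1.5-fold limit, and 6 and 8 at a difference of 0.25 in ln(UMIs per 10000 + 1). With a germ cell limit of 5, 4 genes were lower. Thinned cells and stricter limits leave fewer UMIs per gene, and lower filters and limits let more genes pass. The causes of the other differences were not tested.

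The ratio of Atpaf2 between KO and WT reversed, to 0.34 with a marker limit of 10 and to 0.19 without the cell with the most UMIs, a setting chosen after seeing the data that left 1 gene lower in KO. Of the other values of named genes between KO and WT, 135 moved by less than their counting interval and 3 by more, all 3 with thinned cells. Slc7a2 was then 1.60, computed against a floor of 3 UMIs because WT had 0. Of the values against other somatic cells, 172 stayed within their interval and 28 did not, and none changed direction except Hbb-y, whose ratio differed in sign between the libraries under the study's own limits on cells and without haemoglobin-rich cells, the latter also chosen after seeing the data.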

Other observations

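Of 10 compared genes of steroid reception and metabolism, none was called higher in surface epithelial than in other somatic cells and 2 were called lower, where all genes gave 3.00% and 7.46%. The summed level of the list was 6905 CPM in KO and 6965 CPM in WT against 4867 and 4656 CPM in other somatic cells, most of it from the chaperone gene Hsp90ab1, at 5123 and 5070 CPM. Hsd11b2, the enzyme that inactivates glucocorticoids, stood at 0.71 CPM in KO and 0.86 CPM in WT surface epithelial cells against 60.9 and 67.3 CPM on the collagen side. Hsd11b1, which regenerates active glucocorticoid, had 0 UMIs in the surface epithelial cells of both libraries, which allows up to 3 UMIs in each. Esr1, the estrogen receptor alpha, stood at 20.3 and 20.7 CPM.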
